A study of Mus musculus with 24 samples.

Results

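Open chromatin was examined at the loci of Prdm1 and Bcl6 in CD8 T cells of mice bearing B16-F10 melanoma. Prdm1 encodes BLIMP1, a zinc finger repressor that drives terminal differentiation of plasma cells and effector T cells and is known in CD8 T cells for its part in exhaustion and tissue residency. Bcl6 encodes a zinc finger repressor needed for germinal centre B cells and follicular helper T cells, and it favours memory and progenitor states in CD8 T cells. Each protein is known to repress the gene of the other. The members were all peaks with the summit inside either gene, or within 100 kb of it with no other protein-coding gene nearer, in the 18 libraries with at least 10000 peaks. They were 284 of 565505 peaks, with 212 at Prdm1 and 72 at Bcl6.

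All mice had, at the Lag3 gene, a Cre recombinase that tamoxifen switches on (Lag3-iCreERT2) and a Cre-dependent tdTomato gene at Rosa26 (Rosa26-LSL-tdTomato), on a C57BL/6 background, and every library came from mice of this genotype. All had been implanted with B16-F10 melanoma cells, had received 2 mg of tamoxifen on days 8 to 10 and gave tissue on day 19, so a cell that expressed Lag3 in those days kept the red label. Only Lag3-expressing cells in which recombination took place were marked, so an unlabelled cell need not be one that had never expressed Lag3. Sorted CD8 T cells were profiled in bulk by Omni-ATAC, where the Tn5 enzyme cuts open DNA and tags it for sequencing, to follow accessibility as these cells become exhausted or memory-like. Tumor gave 4 libraries of LAG3+ tdTomato+ cells (DP), 3 named LAG3_SP, 3 named TDT_SP and 4 of LAG3- tdTomato- cells (DN). From the draining (DLN) and the non-draining (NDLN) lymph node there were, for each, 1 LAG3_SP, 2 TDT_SP and 2 DN libraries. Names and descriptions conflict for the single-positive cells: libraries named LAG3_SP are described as LAG3- tdTomato+, and those named TDT_SP as tdTomato+ with no LAG3 state. Groups follow the library names here, with LAG3 taken as unknown in both. Nothing in the labels says that replicates were separate animals, so p-values measure only the spread between these libraries.

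The files were peak lists without read counts, so the depth behind a peak is unknown. The 18 lists used had 14244 to 48268 peaks, and the other 6, with 301 to 6613, entered no fit; these were tumor DP replicate 3, tumor DN replicate 3, DLN TDT_SP replicate 2, NDLN TDT_SP replicate 2, DLN DN replicate 2 and NDLN DN replicate 2. No 2 lists were identical. NDLN LAG3_SP replicate 1 had the shortest of the 18 lists, and it stood apart from the other lymph node libraries at the Prdm1 sites at -24.6 and -70.8 kb, which are given below with and without it. In tumor, DP replicate 4, LAG3_SP replicate 3, TDT_SP replicate 3 and DN replicate 4 had the shortest list of their group, with 19679 to 24050 peaks, and deviated from their group means together: over all regions their deviations correlated at 0.187 to 0.333 with each other and at -0.251 to -0.051 with those of the other 8 libraries. Called regions are given below with and without these libraries. As to cell identity, Cd8a, which encodes the CD8 alpha chain, held a peak among the strongest 14000 in 17 of 18 libraries and Cd3e, a chain of the T cell receptor complex, in 11 of 18. Among B cell and plasma cell markers, Cd79a, Cd79b, Ms4a1, Ebf1, Sdc1 and Jchain had no region, and none of the 3 NK markers had one. Of the 7 myeloid markers 1 had a region and of the 7 melanoma markers 2, with none at Tyr, Dct, Tyrp1, Mitf or Sox10. Cd8b1, Cd3g and Trac, further markers of the labelled cell type, held no region.

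Positions are on mouse build GRCm38, and a site is named by its distance from the annotated start of the gene, with plus for sites after the start in the direction of transcription. Prdm1 lies on the minus strand at chr10:44437174-44528558, and its RefSeq start is at 44458748, so the annotated interval runs 69.81 kb before that start. Its neighbours are Atg5, 72.9 kb beyond the 3′ end, and Prep, 538.7 kb before the 5′ end. Bcl6 lies on the minus strand at chr16:23965050-23988866, with RefSeq starts at 23988852 and 23981283, and its neighbours are Rtp2, 34.3 kb beyond the 3′ end, and Lpp, 404.5 kb before the 5′ end. The annotation table holds gene ends and no exons, so a site is given as inside the gene or beyond an end, and nearness does not show that a site acts on the gene.

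The 250 bases before each start are shown because the Prdm1 window lies under a peak of every library, the first Bcl6 window under a peak that differed between libraries, and the second Bcl6 window under none. The sequences are RefSeq's, on GRCm38.p6, on the minus strand and written 5′ to 3′, and capitals mark matches to the motifs searched.
Prdm1, chr10:44458749-44458998: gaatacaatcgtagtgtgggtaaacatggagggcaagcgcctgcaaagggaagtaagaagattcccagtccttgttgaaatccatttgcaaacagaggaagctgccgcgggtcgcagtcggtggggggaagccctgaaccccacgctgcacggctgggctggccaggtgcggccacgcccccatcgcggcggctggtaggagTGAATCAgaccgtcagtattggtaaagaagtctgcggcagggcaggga
Bcl6, chr16:23988853-23989102: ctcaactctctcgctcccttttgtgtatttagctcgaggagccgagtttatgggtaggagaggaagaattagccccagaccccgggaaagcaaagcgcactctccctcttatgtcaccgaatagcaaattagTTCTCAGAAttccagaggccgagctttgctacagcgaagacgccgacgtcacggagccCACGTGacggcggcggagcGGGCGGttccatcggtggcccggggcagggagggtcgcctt
Bcl6 second start, chr16:23981284-23981533: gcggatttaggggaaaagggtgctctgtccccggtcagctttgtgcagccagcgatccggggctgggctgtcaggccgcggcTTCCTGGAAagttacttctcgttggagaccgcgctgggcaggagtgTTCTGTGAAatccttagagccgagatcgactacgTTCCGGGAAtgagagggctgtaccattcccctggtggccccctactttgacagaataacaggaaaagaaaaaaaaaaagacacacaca
Both strands were searched for TGANTCA (bound by AP-1 factors), TTCNNNGAA (the palindrome bound by STAT factors and near the BCL6 motif), CACGTG (an E-box), GGGCGG (a GC box), TGACGTCA (a cAMP response element) and GAAAGTG (the core bound by BLIMP1). The Prdm1 window held TGAATCA, which starts 48 bases before the gene start. The first Bcl6 window held TTCTCAGAA, CACGTG and GGGCGG, which start 118, 60 and 41 bases before the start. The second Bcl6 window held 3 TTCNNNGAA matches, TTCCTGGAA, TTCTGTGAA and TTCCGGGAA, which start 168, 122 and 88 bases before that start. No match overlapped another, and the TGACGTCA and GAAAGTG letters were in none of the 3 windows. Among 32851 promoter windows of the same length, 6.75% held TGANTCA, 7.02% TTCNNNGAA, 6.02% CACGTG, 32.7% GGGCGG, 1.55% TGACGTCA and 4.01% GAAAGTG. A peak overlapped the Prdm1 window in 18 of 18 libraries, the first Bcl6 window in 14 and the second Bcl6 window in 0. GC content was 59.2%, 58.4% and 54.8% in the 3 windows in the order shown.

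Over the complete lists, Prdm1 held more peaks than Bcl6, in a locus with a longer gene and neighbours that lie farther away. Its 212 peaks fell into 30 sites when summits within 300 bp were chained, and 89 peaks were inside the gene, 69 beyond the 3′ end and 54 before the 5′ end. The 72 peaks of Bcl6 fell into 9 sites, with 55 peaks inside the gene, 1 beyond the 3′ end and 16 before the 5′ end. The authors' fold ratio of a peak over its local background had a median of 6.45 at Prdm1, with a highest value of 22.3, and a median of 5.25 at Bcl6, with a highest value of 8.95. The number of peaks at Prdm1 was 5 to 25 in the 12 tumor libraries and 6 to 10 in the 6 lymph node libraries, and at Bcl6 it was 1 to 6 in both tissues. These counts move with list length, so comparisons below use the same number of strongest peaks of every library.

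**Figure D1:**
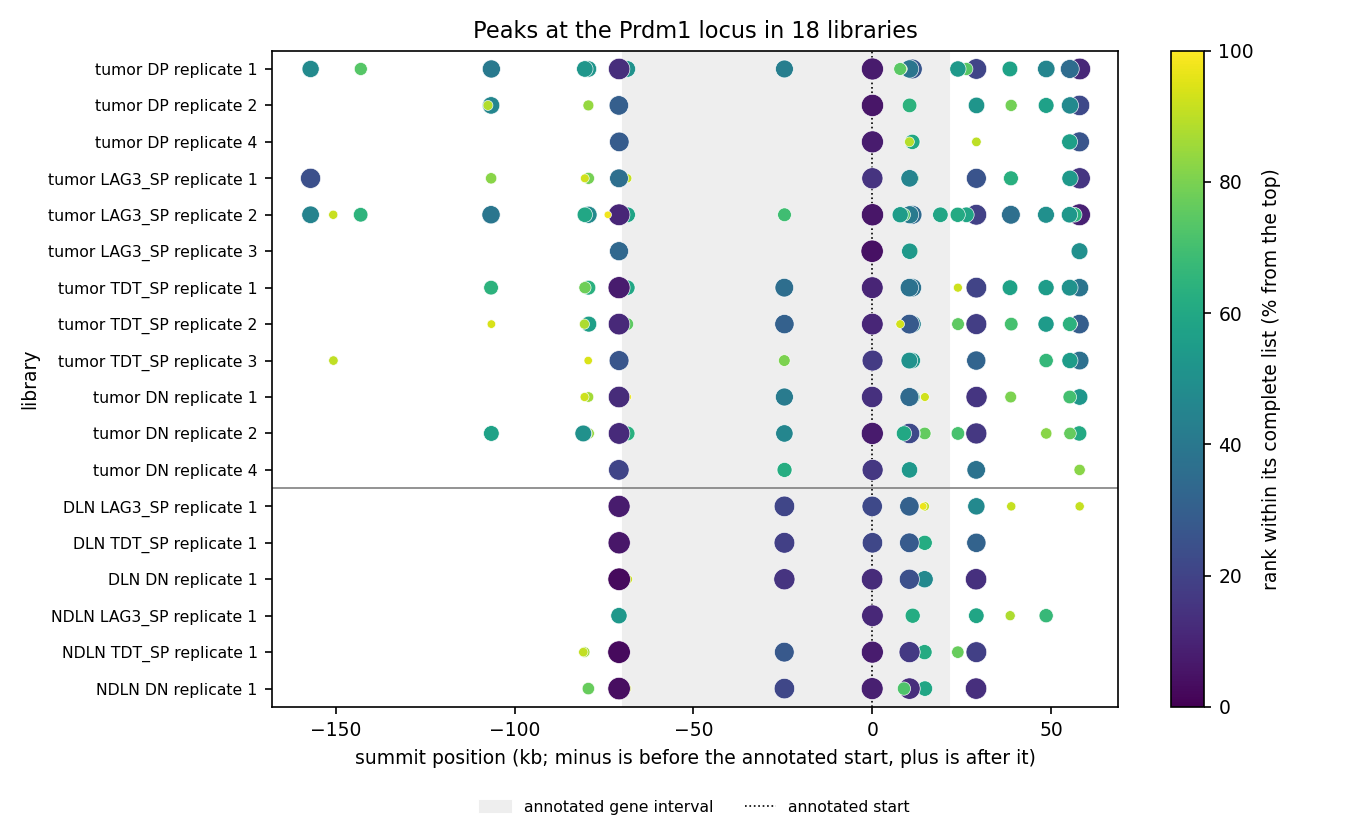
Peaks at the Prdm1 locus in the complete lists of 18 libraries, by summit position in kb from the annotated start (x axis) and library (rows, tumor above lymph node). Colour and size give the rank of the peak as a percentage from the top of its list. The start and the -70.8 kb site held a peak in every row, and the +57.9 kb site at the right edge held one in all 12 tumor rows and in 1 lymph node row.

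Only 2 sites of Prdm1 held a peak in all 18 libraries. The site at the start ranked 4.49% to 21.9% from the top of its list, and the site at -70.8 kb, just before the 5′ end of the annotated interval, ranked 2.69% to 53.5%. In tumor the start was the stronger of these, with a median rank of 9.01% from the top against 16.9% at -70.8 kb. In lymph nodes the order was the other way round, with a median of 11.9% at the start and 4.79% at -70.8 kb. The site at +29.1 kb, beyond the 3′ end, held a peak in 17 libraries and ranked at a median of 20.4% in tumor and 25.3% in lymph nodes.

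Several weaker Prdm1 sites were listed more in one tissue than in the other, and these are described without a test. A site at +55.2 kb had a peak in 10 of 12 tumor libraries and in 0 of 6 lymph node libraries. A site at -106.5 kb had one in 7 tumor libraries and 0 lymph node libraries, and the site at -157.0 kb had one in 3 tumor libraries, which were DP replicate 1 and LAG3_SP replicates 1 and 2. The reverse held at +14.7 kb, inside the gene, with a peak in 2 of 12 tumor libraries, both DN, and in 5 of 6 lymph node libraries, where it ranked 47.1% to 90.6% from the top. Lists are cut at the authors' threshold, so an unlisted site is one that did not pass it at a depth that is unknown.

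**Figure D2:**
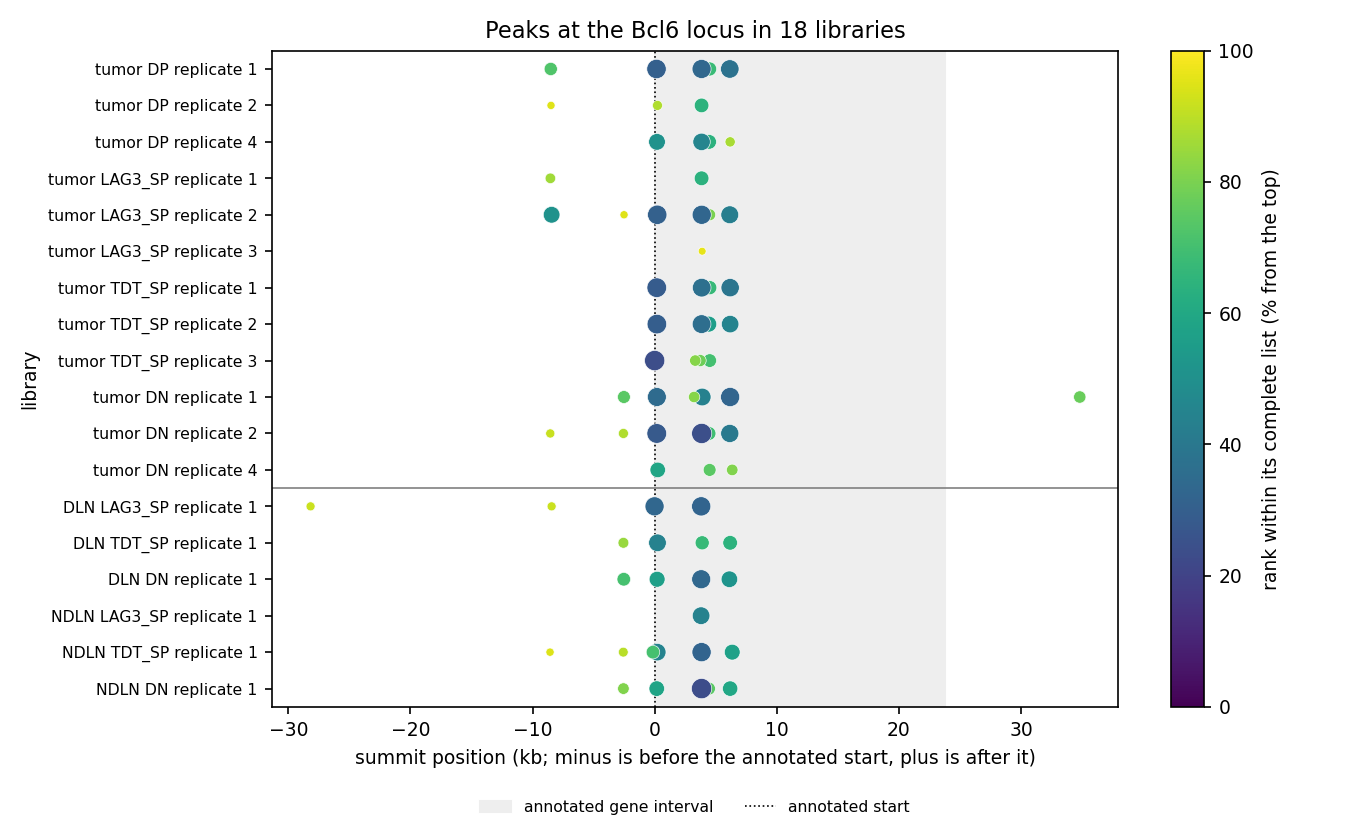
Peaks at the Bcl6 locus in the complete lists of 18 libraries, drawn as for Prdm1. The rows hold 1 to 6 peaks each, most of them between the annotated start and +6.2 kb, and the row of tumor LAG3_SP replicate 3 holds 1.

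Bcl6 had no site in all 18 libraries. The site at +3.8 kb, inside the gene, held a peak in 17 libraries, at a median rank of 43.6% from the top in tumor and 32.6% in lymph nodes. The site at the start, at +0.2 kb by its median summit, held one in 15 libraries, 10 from tumor and 5 from lymph nodes, and ranked 23.6% at best. In tumor it was listed in 3 DP, 1 LAG3_SP, 3 TDT_SP and 3 DN libraries. The site at +6.2 kb held a peak in 8 tumor and 4 lymph node libraries, and again in only 1 of the tumor LAG3_SP libraries.

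For the comparisons between tumor groups, the strongest 19000 peaks of 12 libraries were ranked by the authors' -log10 p. Each received a rank value, 1 for the strongest and near 0 for the weakest, and 0 stands for no kept peak over the region. These values give the order of peaks within 1 library and do not measure how open a site is. Among the kept peaks were 82 of 162 at Prdm1 and 30 of 48 at Bcl6, and they gave 11 regions at Prdm1 and 5 at Bcl6, each reaching 250 bp to either side of a summit and with a peak in at least 2 libraries. A region was called at a limma adjusted p under 0.05, with Benjamini-Hochberg adjustment over all 27065 regions.

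In tumor, 1 of the 16 regions was called between sorted groups, and it was the distal Prdm1 region at +58.0 kb (chr10:44400509-44401009), 36.42 kb beyond the 3′ end. This region lies near the middle of the 72.9 kb between Prdm1 and Atg5, and it was assigned to Prdm1 by a small margin. Its rank values were 0.73, 0.698 and 0.666 in DP, 0.798, 0.763 and 0.483 in LAG3_SP, 0.238, 0.415 and 0.559 in TDT_SP and 0.097, 0 and 0.143 in DN. All 9 DP, LAG3_SP and TDT_SP libraries were above all 3 DN libraries, and DP did not overlap with TDT_SP. The region was 0.617 higher in DP than in DN (SE 0.117, limma adjusted p = 0.0107) and 0.601 higher in LAG3_SP than in DN (SE 0.117, limma adjusted p = 0.0104). The limma F test over the 4 groups gave an adjusted p of 0.0208, and 3.99% of all regions passed it. Of all regions, 2.62% were called higher in DP than in DN and 3.61% higher in LAG3_SP than in DN, and 1.37% and 2.01% were called lower, so 1 call among 16 member regions does not set the loci apart from the rest. At an unadjusted p under 0.05, DP and DN differed in 6 of the 16 member regions and in 4985 of all regions.

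TDT_SP lay between at this region: it was 0.324 above DN (SE 0.117, limma adjusted p = 0.355) and differed by -0.294 from DP (SE 0.117, limma adjusted p = 0.361), and neither difference passed the threshold. LAG3_SP differed from DP by -0.017 (SE 0.117, limma adjusted p = 1.0), and it was 0.277 above TDT_SP (SE 0.117, limma adjusted p = 0.245). The order of the means was thus DP 0.698 ± 0.032, LAG3_SP 0.681 ± 0.173, TDT_SP 0.404 ± 0.161 and DN 0.08 ± 0.073 (SD, n = 3 each), and no pair of neighbours in it differed beyond the adjusted threshold. Background shares for these pairs were 0.569% called between TDT_SP and DN, 0.0333% between TDT_SP and DP and 0.942% between LAG3_SP and TDT_SP. Between LAG3_SP and DP, limma called 0 of 27065 regions, with 1571 at an unadjusted p under 0.05.

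**Figure D3:**
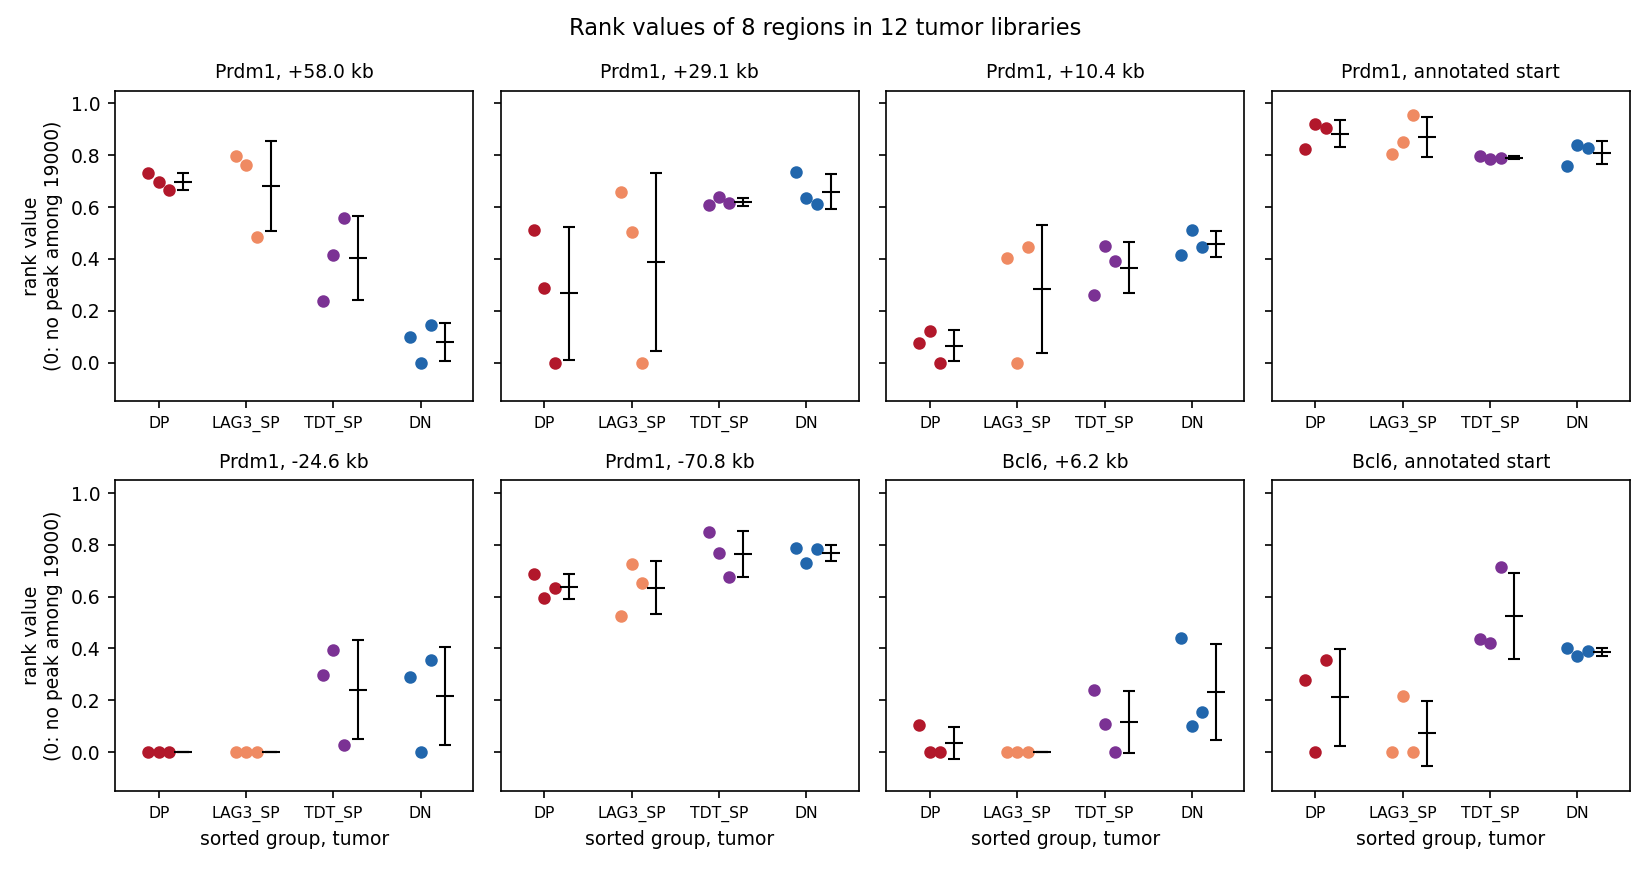
Rank values (y axis, 0 where no peak was among the strongest 19000) of 6 Prdm1 and 2 Bcl6 regions in the tumor libraries by sorted group (x axis). Points are libraries and bars give the mean and SD of 3 libraries; at +58.0 kb the DP points sit between 0.666 and 0.73 and the DN points between 0 and 0.143.

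In the complete lists, without a limit on the number of peaks, the DN libraries again had this peak lowest. It ranked 11.3%, 22.1% and 26.4% from the top in DP, 15.4%, 9.33% and 49.9% in LAG3_SP, 39%, 29.6% and 36.4% in TDT_SP and 52.4%, 60.5% and 82.4% in DN. DN libraries thus held the peak too, each below the middle of its list, and the weakest LAG3_SP library came close to the strongest DN library. Its fold ratio, the authors' own value, was 12.2, 9.22 and 8.67 in DP, 10.6, 14.3 and 6.64 in LAG3_SP, 7.22, 9.05 and 7.47 in TDT_SP and 6.6, 5.5 and 4.52 in DN. In a bulk library, fewer cells with the site open and a site less open in each cell cannot be told apart.

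The DP call ended without DP replicate 1 (0.601, limma adjusted p = 0.052), and both calls ended with all peaks of each list, with the strongest 10000, with ranks by fold ratio, with peaks at a -log10 q of 3 or more and with presence or absence as the value, the direction being kept in each. Without the shortest list of each group both calls held, at 0.665 for DP (limma adjusted p = 0.0138) and 0.732 for LAG3_SP (limma adjusted p = 0.00926). The LAG3_SP call ended when only the LAG3_SP and DN libraries were fitted (0.601, limma adjusted p = 0.0695).

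Marker lists of other cells are given beside this result. The summed rank values inside the 4 of 5 markers of CD4, follicular helper and regulatory T cells that had a region (Cd4, Foxp3, Cd40lg and Ikzf2, with none at Zbtb7b) were 1.23 to 1.44 in DP, 1.11 to 2.04 in LAG3_SP, 0.75 to 1.23 in TDT_SP and 0.67 to 0.76 in DN. For the 3 B cell and plasma cell markers with a region (Pax5, Blk and Xbp1) the sums were 1.35 to 1.41 in DP, 1.29 to 1.36 in LAG3_SP, 1.0 to 1.32 in TDT_SP and 0.75 to 1.32 in DN. In both lists the DP and DN ranges did not overlap. The melanoma sum was 1.65 to 1.92 in DP and 1.56 to 2.08 in DN, and the myeloid sum was 0 to 0.27 in DP and 0 to 0.16 in DN. The part of these in the Prdm1 result was not tested.

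The other 10 Prdm1 regions were not called in tumor. At the start (chr10:44458549-44459049) rank values were high in all groups, with 0.824, 0.922 and 0.904 in DP, 0.803, 0.852 and 0.954 in LAG3_SP, 0.796, 0.786 and 0.788 in TDT_SP and 0.759, 0.84 and 0.829 in DN. DP and DN overlapped, and DP differed from DN by 0.074 (SE 0.0419, limma adjusted p = 0.382). All TDT_SP libraries were below all DP and LAG3_SP libraries, and TDT_SP differed from DP by -0.093 (SE 0.0419, limma adjusted p = 0.415). The region at -70.8 kb had rank values of 0.525 or more in all 12 libraries, at 0.639 ± 0.048 in DP, 0.635 ± 0.102 in LAG3_SP, 0.765 ± 0.088 in TDT_SP and 0.767 ± 0.031 in DN (SD, n = 3 each). All DP and LAG3_SP libraries were below all DN libraries there, but neither the difference of DP minus DN, -0.129 (SE 0.0644, limma adjusted p = 0.312), nor that of LAG3_SP minus DN, -0.132 (SE 0.0644, limma adjusted p = 0.242), was called.

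Further regions inside and beyond Prdm1 had values in which DP and DN did not overlap although no call was made. How often groups fail to overlap over all regions was not counted, here or for the other regions described. Such separation therefore does not set these regions apart from the rest. At +10.4 kb, inside the gene, DP had 0.075, 0.121 and 0, and DN had 0.414, 0.512 and 0.447 (difference -0.392, SE 0.128, limma adjusted p = 0.118). The neighbouring region at +11.2 kb ran the other way, with 0.366, 0.121 and 0.241 in DP and 0 in all 3 DN libraries (difference 0.243, SE 0.0872, limma adjusted p = 0.155). A peak wide enough to overlap both regions gives its value to each, and DP replicate 2 had 0.121 in both. At +29.1 kb DP had 0.513, 0.289 and 0, and DN had 0.735, 0.635 and 0.61 (difference -0.392, SE 0.162, limma adjusted p = 0.217). At +55.3 kb, next to the called region, DP had 0.171, 0.354 and 0.291, and DN had 0 throughout (difference 0.272, SE 0.103, limma adjusted p = 0.176). Higher and lower values in DP thus stood side by side within the locus, and the median difference over its 11 regions was 0.074, beside -0.005 over all regions.

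The region at -24.6 kb, inside the interval and before the start, had 0 in all 6 DP and LAG3_SP libraries. It had 0.299, 0.395 and 0.027 in TDT_SP and 0.29, 0 and 0.355 in DN. The difference from DN was -0.215 for DP (SE 0.101, limma adjusted p = 0.278) and -0.215 for LAG3_SP (SE 0.101, limma adjusted p = 0.226). The remaining regions, at +48.6, +38.8 and -106.6 kb, had a kept peak in at most 3 of the 12 libraries.

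**Figure D4:**
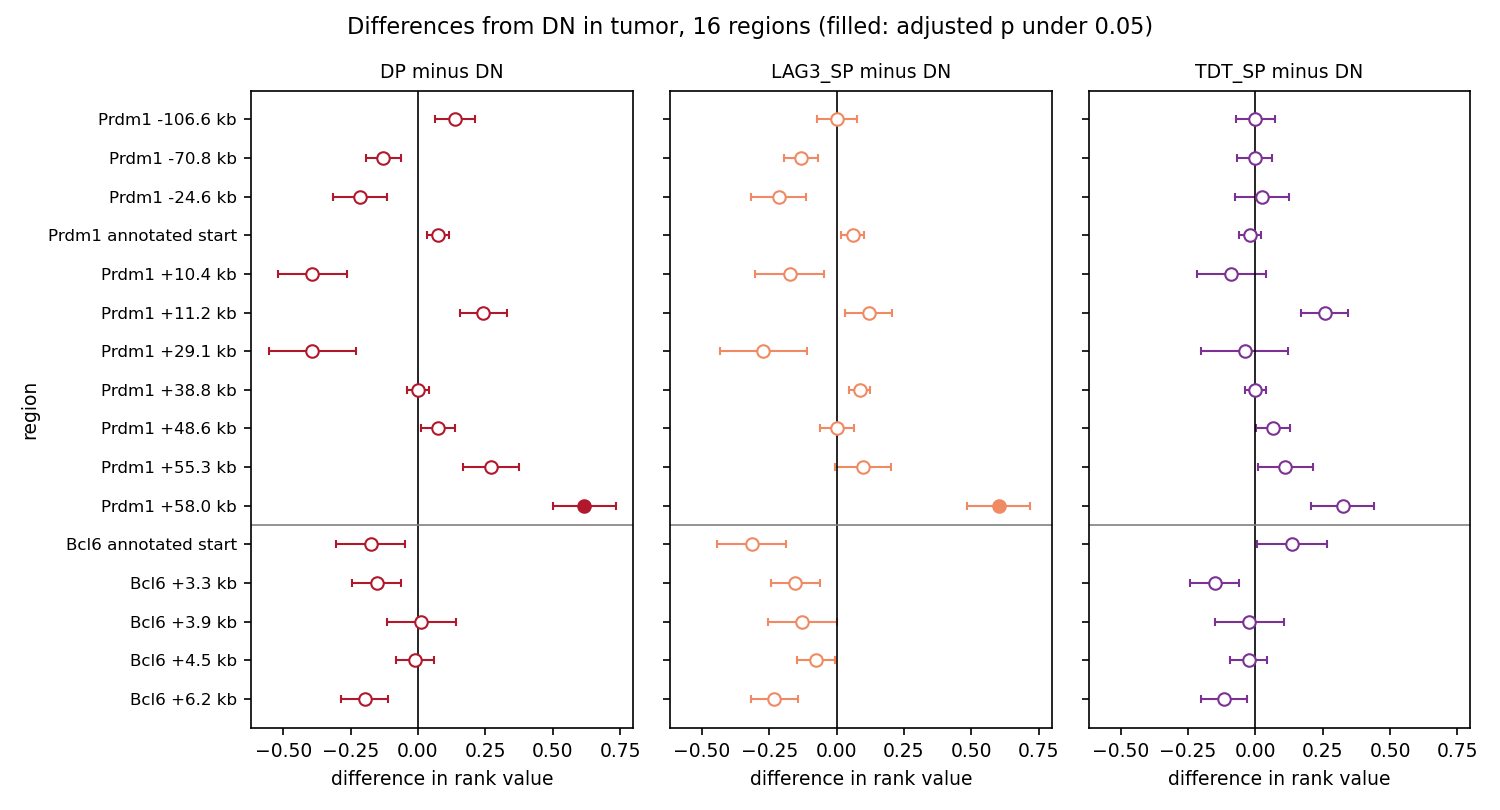
Differences in rank value from DN (x axis) for DP, LAG3_SP and TDT_SP in tumor over the 16 regions (y axis, in order of position within each gene), with bars for the standard error. Filled points passed an adjusted p of 0.05, which only the Prdm1 region at +58.0 kb did, in DP and LAG3_SP.

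No Bcl6 region was called between tumor groups. The one with the smallest p over the 4 groups was the region at the start (chr16:23988599-23989099; limma F test, adjusted p = 0.173). Its rank values were 0.278, 0 and 0.356 in DP, 0, 0.218 and 0 in LAG3_SP, 0.437, 0.421 and 0.715 in TDT_SP and 0.402, 0.371 and 0.389 in DN. All TDT_SP libraries were above all LAG3_SP libraries, and all DN libraries were above all DP and LAG3_SP libraries. LAG3_SP differed from TDT_SP by -0.452 (SE 0.129, limma adjusted p = 0.113) and from DN by -0.315 (SE 0.129, limma adjusted p = 0.171), and DP differed from DN by -0.176 (SE 0.129, limma adjusted p = 0.512).

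Within the Bcl6 gene, the region at +6.2 kb had 0.105, 0 and 0 in DP, 0 in all 3 LAG3_SP libraries, 0.239, 0.11 and 0 in TDT_SP and 0.442, 0.099 and 0.155 in DN. LAG3_SP and DN did not overlap, with a difference of -0.232 (SE 0.087, limma adjusted p = 0.139). The region at +3.9 kb overlapped between all groups, at 0.25 ± 0.156 in DP, 0.109 ± 0.092 in LAG3_SP, 0.214 ± 0.136 in TDT_SP and 0.237 ± 0.23 in DN (SD, n = 3 each). The regions at +4.5 and +3.3 kb had a kept peak in at most 3 libraries. The median difference of DP minus DN over the 5 Bcl6 regions was -0.153, and that of LAG3_SP minus DN was -0.153, beside -0.005 and -0.017 over all regions. Both medians were the difference at +3.3 kb, where all DP and LAG3_SP libraries had 0 and 1 of 3 DN libraries had a value. That value, 0.46, was also the highest DN value at +3.9 kb, so the size of both medians rests on 1 DN library.

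The number of kept peaks per library was compared as a single measure of each locus. At Prdm1 it was 8, 8 and 5 in DP, 9, 7 and 5 in LAG3_SP, 8, 7 and 9 in TDT_SP and 6, 4 and 6 in DN. An exact permutation test of the between-group sum of squares over 369600 arrangements gave p = 0.299 (adjusted p = 0.598 over 4 permutation tests). All TDT_SP libraries were above all DN libraries at Prdm1, and the other pairs of groups overlapped. At Bcl6 it was 3, 1 and 3 in DP, 1, 2 and 1 in LAG3_SP, 3, 3 and 4 in TDT_SP and 3, 3 and 3 in DN. LAG3_SP was the group without a library of 3 or more at Bcl6, and the test did not pass the threshold (exact permutation p = 0.0591, adjusted p = 0.236).

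Tumor and lymph node were compared over LAG3_SP, TDT_SP and DN cells, 9 libraries from tumor and 6 from nodes, with the strongest 14000 peaks of each and the sorted subset as a covariate. DP had no lymph node library and was left out. The members then had 8 regions at Prdm1, from 77 of 173 peaks, and 2 at Bcl6, from 17 of 60. Of these 10 regions, 3 were called, all lower in tumor: the Prdm1 regions at -24.6 and -70.8 kb and the Bcl6 region at +3.8 kb. Among all 22997 regions 12% were called lower in tumor and 10.2% higher.

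At -24.6 kb (chr10:44483063-44483563) tumor rank values were 0, 0 and 0 in LAG3_SP, 0.049, 0.178 and 0 in TDT_SP and 0.036, 0 and 0.125 in DN. Lymph node values were 0.494 in DLN LAG3_SP, 0.596 in DLN TDT_SP, 0.599 in DLN DN, 0 in NDLN LAG3_SP, 0.31 in NDLN TDT_SP and 0.49 in NDLN DN. Of the 6 lymph node libraries 5 were above all 9 tumor libraries, and NDLN LAG3_SP was the exception. The difference was -0.372 (SE 0.069, limma adjusted p = 0.0025), and without NDLN LAG3_SP it was -0.426 (limma adjusted p = 0.000671). In the complete lists this peak ranked 15% to 27.5% from the top in those 5 lymph node libraries, and 30.7% to 80.4% in the 8 tumor libraries that held it, DP included. The call ended with all peaks of each list (-0.289, limma adjusted p = 0.15), with a -log10 q of 3 or more (-0.304, limma adjusted p = 0.144) and with presence or absence (-0.389, limma adjusted p = 0.33), but not without any single library or without the shortest list of each tumor group (-0.371, limma adjusted p = 0.0154).

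At -70.8 kb (chr10:44529280-44529780), the strongest Prdm1 site of the lymph nodes by median rank, tumor values ran from 0.355 through a median of 0.635 to 0.798, and lymph node values from 0.455 through a median of 0.893 to 0.932. The 5 lymph node libraries other than NDLN LAG3_SP, at 0.816 or more, were above all tumor libraries. The difference was -0.196 (SE 0.0567, limma adjusted p = 0.0236), and without NDLN LAG3_SP it was -0.248 (limma adjusted p = 0.00436). This call ended without DLN LAG3_SP replicate 1 (limma adjusted p = 0.0565), without NDLN TDT_SP replicate 1 (0.077) and without NDLN DN replicate 1 (0.0731), without the shortest list of each tumor group (-0.184, 0.0537), and also with all peaks (-0.064, 0.491), with ranks by fold ratio (-0.169, 0.0758), with a -log10 q of 3 or more (-0.065, 0.528) and with presence or absence, where both tissues had the peak throughout.

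At the Bcl6 region at +3.8 kb (chr16:23984804-23985304), tumor values were 0 in 6 of 9 libraries, and the other 3 were 0.033 and 0.048 in TDT_SP and 0.268 in DN replicate 2. Lymph node values were 0.226 in DLN LAG3_SP, 0 in DLN TDT_SP, 0.101 in DLN DN, 0.553 in NDLN LAG3_SP, 0.201 in NDLN TDT_SP and 0.445 in NDLN DN. The tissues overlapped, with a difference of -0.216 (SE 0.061, limma adjusted p = 0.0213). It was not called with the strongest 10000 peaks (-0.1, limma adjusted p = 0.0785), with ranks by fold ratio (-0.106, 0.177), with all peaks (-0.182, 0.418), with a -log10 q of 3 or more (-0.167, 0.465) or with presence or absence (-0.5, 0.261), nor without the shortest list of each tumor group (-0.196, 0.0868).

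**Figure D5:**
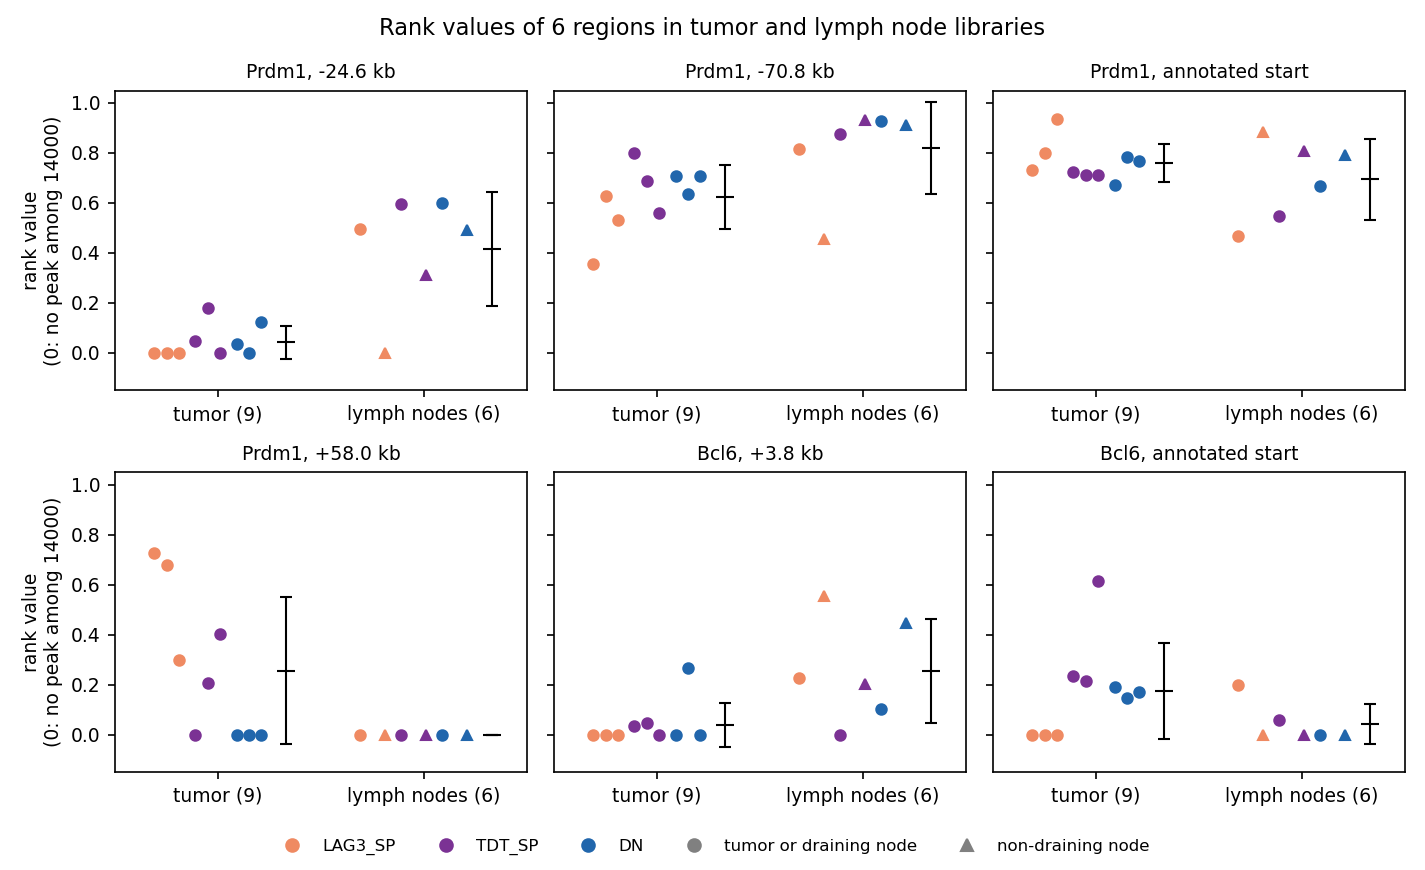
Rank values (y axis, 0 where no peak was among the strongest 14000) of 4 Prdm1 and 2 Bcl6 regions in 9 tumor and 6 lymph node libraries (x axis), coloured by sorted subset, with bars for the mean and SD. At -24.6 kb the tumor points lie between 0 and 0.178 and 5 lymph node points between 0.31 and 0.599, and at +58.0 kb all 6 lymph node points are at 0.

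Beside these tissue differences, the summed rank values of the CD4, follicular helper and regulatory T cell markers were 0.67 to 2.04 in the 9 tumor libraries and 1.42 to 2.56 in the 6 lymph node libraries. Those of the B cell and plasma cell markers were 0.75 to 1.36 in tumor and 0 to 0.85 in lymph nodes, where Pax5, Blk and Xbp1 were the markers with a region and Cd79a, Cd79b and Ms4a1 had none. The myeloid sum was 0 to 0.2 in tumor and 0 in lymph nodes, and the part of these in the tissue differences was not tested.

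The region at +58.0 kb, called within tumor, had no kept peak in any lymph node library. Tumor values were 0.725, 0.678 and 0.298 in LAG3_SP, 0, 0.207 and 0.401 in TDT_SP and 0 in all 3 DN libraries, and the difference of 0.257 did not pass the threshold (SE 0.0955, limma adjusted p = 0.0642). With all peaks of each list it was 0.569 (limma adjusted p = 0.0217), and the site was listed in 12 of 12 tumor libraries and in 1 of 6 lymph node libraries, DLN LAG3_SP, at 91.3% from the top. The difference of LAG3_SP minus DN was 0.567 larger in tumor than in lymph node (SE 0.179, limma adjusted p = 0.0735), and this interaction was called without tumor LAG3_SP replicate 3, and without the shortest list of each tumor group. Leaving out DLN LAG3_SP replicate 1 left 1 LAG3_SP library in the nodes, NDLN LAG3_SP replicate 1, which had the shortest list. At +11.3 kb that library had 0.375 and the other lymph node libraries 0, so the negative LAG3_SP interaction there rests on 1 library. No member region was called for the LAG3_SP or the TDT_SP interaction, beside 8.52% and 4.42% of all regions, with 1 and 0 of the 10 members at an unadjusted p under 0.05, beside 4783 and 2836 of all 22997 regions.

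Neither start region was called between the tissues. At the Prdm1 start, tumor values ran from 0.673 through a median of 0.732 to 0.937 and lymph node values from 0.466 through a median of 0.73 to 0.885 (difference 0.065, SE 0.0434, limma adjusted p = 0.276). At the Bcl6 start, tumor values were 0 in all 3 LAG3_SP libraries, 0.236, 0.215 and 0.613 in TDT_SP and 0.189, 0.147 and 0.171 in DN. Lymph node values were 0.199 in DLN LAG3_SP, 0.059 in DLN TDT_SP and 0 in the other 4 libraries (difference 0.132, SE 0.0744, limma adjusted p = 0.202).

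Between draining and non-draining nodes limma called 0 of the 10 member regions, beside 0.0304% of all regions, and at an unadjusted p under 0.05 there were 3 members and 1543 of all 22997 regions. The smallest p among these was at the Prdm1 start, at 0.466, 0.548 and 0.668 in DLN LAG3_SP, TDT_SP and DN and at 0.885, 0.808 and 0.792 in NDLN LAG3_SP, TDT_SP and DN. All 3 draining libraries were below all 3 non-draining ones (difference -0.268, SE 0.0673, limma adjusted p = 0.351). The number of kept peaks at Prdm1 was 5.22 ± 1.2 in 9 tumor and 5.0 ± 0.63 in 6 lymph node libraries (SD; exact permutation test within subsets, two-sided, p = 0.802, adjusted p = 1.0). At Bcl6 it was 1.11 ± 0.93 in 9 tumor and 1.17 ± 0.41 in 6 lymph node libraries (exact permutation p = 1.0).

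Genes linked to BLIMP1 and BCL6 in lymphocytes were then read in the same fits, from a list of 41 genes of which 38 had regions. The lists were 12 upstream signals (cytokine receptors and STAT factors), 8 effector-side factors, 8 memory-side factors, 12 genes reported as repressed by BLIMP1, and 5 co-repressors, with Bach2, Tcf7, Id3 and Cxcr5 in more than 1 list. For DP minus DN, 7 of 218 regions were called higher and 6 lower, beside 2.62% and 1.37% of all regions. By list, the called regions were 1 higher and 1 lower among upstream signals, 3 and 1 among effector-side factors, 2 and 3 among memory-side factors, 1 and 4 among genes reported as repressed by BLIMP1 and 1 and 0 among co-repressors. The median difference was -0.033 over the 51 regions of the BLIMP1-repressed list and 0 over the 42 of the effector-side list, beside -0.005 over all regions.

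The network genes with the smallest p differed in direction. The region assigned to Id2, an inhibitor of E proteins linked to effector differentiation, lies 59.52 kb from that gene. It was at 0.91 ± 0.055 in DP and 0.362 ± 0.104 in DN (difference 0.549, SE 0.0666, limma adjusted p = 0.00128). A region 52.84 kb from Lef1, a factor of memory lymphocytes, had 0.955 ± 0.017 in DP and 0.73 ± 0.041 in DN (limma adjusted p = 0.00128; SD, n = 3 each). Regions 15.96 kb from Ccr7, a lymph node homing receptor, and 1.04 kb from Il6st, the shared receptor chain of interleukin 6 cytokines, were at 0 in all DP libraries. In DN they were at 0.317 ± 0.063 and 0.31 ± 0.064 (limma adjusted p = 0.003 and 0.00328). Regions near Id3, a memory-side inhibitor of E proteins, and inside Bach2, a repressor that restrains effector genes, were also at 0 in DP, with 0.416 ± 0.118 and 0.525 ± 0.012 in DN (limma adjusted p = 0.00647 and 0.0075). Bach2 also had a region called higher in DP, so the gene has calls in both directions.

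For LAG3_SP minus DN, 11 network regions were called higher and 6 lower, beside 3.61% and 2.01% of all regions, and for TDT_SP minus DN 0 were called higher and 2 lower, at Ccr7 and Il6st, beside 0.211% and 0.358%. By list, LAG3_SP had 4 higher and 2 lower among upstream signals, 4 and 0 among effector-side factors, 2 and 3 among memory-side factors, 2 and 4 among genes reported as repressed by BLIMP1 and 0 and 0 among co-repressors. These comparisons share the DN libraries with DP minus DN. For tumor minus lymph node, 16 of 186 network regions were called higher and 30 lower, beside 10.2% and 12% of all regions. In the BLIMP1-repressed list 2 regions were called higher and 14 lower of 53, and in the memory-side list 4 and 13 of 68, while the effector-side list had 6 higher and 1 lower of 33, the upstream signals 4 and 9 of 49 and the co-repressors 2 and 3 of 19. A region inside Bach2 was at 0.073 ± 0.114 in 9 tumor libraries and 0.628 ± 0.109 in 6 lymph node libraries (difference -0.555, SE 0.0745, limma adjusted p = 0.000619). One 15.91 kb from Ccr7 was at 0.025 ± 0.056 and 0.527 ± 0.266 (limma adjusted p = 0.0013). Both regions called higher in the BLIMP1-repressed list were at Bach2, so this gene had calls in both directions. Il2rb had them too, with a region inside it at 0.521 ± 0.081 in tumor and 0.123 ± 0.193 in lymph nodes (limma adjusted p = 0.00321).

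The regions most like those of the members were sought over the 18 libraries, with the strongest 14000 peaks of each, by the mean absolute difference in rank value. Closest to the Prdm1 region at +58.0 kb were regions inside Prkce (0.026), which encodes protein kinase C epsilon, inside Stat3 (0.042), a factor activated by cytokine receptors, and inside Sgms1 (0.048), a sphingomyelin synthase. Regions 38.14 kb from Chmp4b (0.048) and 50.13 kb from Dusp22 (0.051) followed. Closest to the Bcl6 start were regions at Brd7 (0.034), Ywhae (0.038), Polr2f (0.039), Itpka (0.04) and Fnbp1 (0.042). These likenesses describe 18 libraries and say nothing of shared control.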

How the data were processed

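Chromatin accessibility was measured by Omni-ATAC in 24 libraries of sorted CD8 T cells. Per the submitters' processing notes the authors used BWA and MACS2 on GRCm38/mm10, with no version or setting stated there. Each deposited peak list gives 1 library's peaks with the authors' fold ratio over background, the -log10 p and the -log10 q, and the lowest -log10 q of a list was 1.30 to 1.58. No counts were used, so depth is unknown and no counting interval can be given.

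Libraries were grouped by name, and 6 lists under 10000 peaks entered no fit. The strongest 19000 peaks (tumor fit, 12 libraries) or 14000 (tissue fit, 15 libraries) were ranked by -log10 p, and regions reaching 250 bp to either side of a summit were kept where at least 2 libraries had a peak with 1 bp of overlap. Rank values were fitted with limma 3.58.1 in R 4.3.3 (trend, all groups in 1 fit, Benjamini-Hochberg over all regions, threshold 0.05). The tissue fit had the subset as a covariate. Both fits were tested on simulated data with normal noise. For DP minus DN, 18 of 100 shifts of 0.3 and 65 of 100 shifts of 0.6 were recovered, with 4 false calls. For tumor minus lymph node, 62 and 92 were recovered, with 15 false calls. Each lymph node group had 1 library, so the noise there was set from the tumor libraries alone. These tissue figures therefore leave out the spread between lymph node libraries. A shift of 0.3 between tumor groups was thus mostly missed. Peaks per locus were compared by exact permutation over all arrangements with numpy 2.4.6, in Python 3.11.15. Genes came from a RefSeq table of GRCm38 with 21631 protein-coding genes; 53 of 586440 peaks lay off chromosomes 1 to 19 and X. Given in full are called regions, the start regions and those with the smallest p over the tumor groups and between tissues. Of the network list, at most 6 genes with a called region were named per comparison, by smallest p. The genes most like were the 5 with the lowest mean absolute difference. Members and lists were chosen with earlier results of these data known. Alternatives changed the number of peaks kept, the ranking, the threshold, the overlap, the region width, the filter, the groups fitted, the replicate block and the libraries.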

Additional observations from a re-analysis of the deposited data

Results flagged for a closer look

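Some values stood far from the others of their group or came from lists that entered no fit. For this, 14 groups of values were examined for a sample far from the rest. The rule flags about 1 in 20 groups by chance where values are normally distributed. Rank values with many zeros and small counts are not, so the rate here is unknown. At the Prdm1 region at -70.8 kb, NDLN LAG3_SP replicate 1 had a rank value of 0.455, the lowest of the 6 lymph node libraries, whose other values were 0.816 or more. At the Bcl6 region at +3.8 kb, tumor DN replicate 2 had 0.268, the highest of 9 tumor libraries, the others being 0.048 or less. At the Prdm1 start, tumor LAG3_SP replicate 3 had 0.937, the highest of 9 tumor libraries. DLN LAG3_SP replicate 1 had 2 Bcl6 peaks among its strongest 14000, while each of the other 5 lymph node libraries had 1.

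Of the 6 short lists, 4 held peaks at Prdm1 and none held one at Bcl6. DLN TDT_SP replicate 2 had 2, at +11.23 kb (98.0% from the top of its list) and at -70.8 kb (21.2%). NDLN DN replicate 2 had 2, at -24.56 kb (70.1%) and at -70.75 kb (53.8%). Tumor DP replicate 3 had 1, at -70.77 kb (61.0%), and tumor DN replicate 3 had 1, at the start (46.1%).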

How the results depend on the processing

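Number of called member regions: the DP minus DN count of 1 became 0 with all peaks of each list, the strongest 10000, the strongest 4000 with short lists, ranks by fold ratio and a -log10 q of 3 or more, and ran from 0 to 1 when single libraries were left out (0 without tumor DP replicate 1). The LAG3_SP minus DN count of 1 became 0 in the same 5 settings and with the 2 groups alone, and ran from 1 to 2 without single libraries, the 2 arising without tumor LAG3_SP replicate 3. Presence or absence gave TDT_SP minus DN a count of 1, at the Prdm1 region at +11.2 kb, which it also called in place of +58.0 kb in DP minus DN and LAG3_SP minus DN. The tumor minus lymph node count of 3 became 0 with presence or absence, 1 with all peaks, 1 with ranks by fold ratio and 1 with a -log10 q of 3 or more, 1 without the shortest list of each tumor group (at -24.6 kb), and ran from 2 to 4 without single libraries; the 1 with all peaks or the stricter q was the region at +58.0 kb, higher in tumor, which was also called with regions in 3 libraries or more (count 4). With the strongest 10000 the count stayed at 3, with +10.4 kb in place of the Bcl6 region. The LAG3_SP interaction ran from 0 to 1 without single libraries and was 1 without the shortest list of each tumor group, an alternative chosen after seeing the data; with those libraries marked by a term, the tumor counts were 1 for DP minus DN and 1 for LAG3_SP minus DN. The cause of these changes was not tested. The tumor minus lymph node difference in Prdm1 peaks, 0.222, was -1.11 with the strongest 10000 and -0.467 as a sum of rank values, and ran from -0.111 to 0.556 without single libraries; that in Bcl6 peaks, -0.0556, was 0.333 with a -log10 q of 3 or more and ran from -0.222 to 0.111. Differences were recomputed for +58.0 kb, both starts (the Bcl6 start in tumor only) and, between tissues, -24.6 kb, -70.8 kb and Bcl6 +3.8 kb. They kept their direction in every alternative with a value, except that presence or absence gave 0 at the Prdm1 start and at -70.8 kb, where all libraries had a peak; the +58.0 kb region had no value with the strongest 4000.

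Same-numbered tumor libraries of different groups correlated at 0.027 to 0.268 (median 0.103) over 14 pairs, 7 of them over 0.1, and 2 of 12 libraries correlated best with their own number, while the other 40 pairs had a median of -0.127. The rule of every pair over 0.1 was not met, so the libraries are treated as sharing only a number. With the replicate block the counts were 1 for DP minus DN, 1 for LAG3_SP minus DN and 0 for tumor minus lymph node, the +58.0 kb differences were 0.617 (limma adjusted p = 0.0258) and 0.619 (0.0409), and the differences at -24.6 kb, -70.8 kb and the Bcl6 region at +3.8 kb were -0.387 (0.0676), -0.199 (0.185) and -0.244 (0.124). The block gave exact permutation p = 0.368 for Prdm1 peaks and 0.104 for Bcl6 peaks over the tumor groups. Depth is unknown, so a site missing from a list may be below the authors' threshold.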

Other observations

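Further sites in the complete lists had too few kept peaks for a region or no comparison of their own. At Prdm1, the site at -79.3 kb held a peak in 9 of 12 tumor libraries and 1 of 6 lymph node libraries, the site at -80.4 kb in 7 and 1, and the site at -68.5 kb in 7 and 2. The site at -157.0 kb, listed in 3 tumor libraries, ranked 47.5% from the top in DP replicate 1, and 24.6% and 44.6% in LAG3_SP replicates 1 and 2. At Bcl6, the site at -2.6 kb, before the start, held a peak in 3 tumor and 4 lymph node libraries, and the site at -8.5 kb in 5 and 2. These counts come from lists of unequal length and were not tested.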
